A study of Mus musculus with 2 samples.

Results

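The MHC class I presentation genes described here are 10 genes of 32285 in the count matrix, taken by their symbols: the heavy chain genes H2-K1, H2-D1, H2-Q4, H2-Q7 and H2-T23, the light chain gene B2m, the peptide loading genes Tap1, Tap2 and Tapbp, and the regulator gene Nlrc5. They were measured in CD8+ T cells from the spleens of wild-type mice, kept for 30 h in 6 conditions. In 3 of these the stimulus was the peptide named M9C at 0.2, 2 or 20 pmol, in another pair it was the peptide named L6F at 80 or 20 pmol, and the last was the rested control. Per the deposited hashtag table, each peptide was loaded on biotinylated monomeric H-2Db, a class I molecule, and coated on streptavidin plates, so the T cells met class I on a surface and no presenting cell was named. The sources used here do not give the age or number of the mice or the T cell receptor of the cells. Each condition was 1 culture, marked with its own hashtag antibody (a barcoded antibody that marks the culture of origin) before all were joined in 1 droplet lane. There is therefore no replicate of any condition, and intervals below cover counting error only. No p-value is given.

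Class I molecules display peptides from inside a cell to CD8+ T cells. A heavy chain, encoded in the mouse H2 complex, pairs with beta-2 microglobulin, and the peptide that completes the complex is cut by the proteasome, pumped into the endoplasmic reticulum by the transporter of Tap1 and Tap2, and loaded with the help of tapasin, the product of Tapbp. Nlrc5 acts in the nucleus as a transactivator of class I genes, and interferon and NF-kB signals are known to raise the same genes. T cells carry class I on their own surface, which is what was measured here: the responding cells' own presentation genes, not those of a presenting cell.

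Of the 10 genes, 8 lie on chromosome 17, with B2m on chromosome 2 and Nlrc5 on chromosome 8 (GRCm38, GENCODE vM21). The promoter table, from RefSeq with the build GRCm38.p6, held 8 of them, all but Tap2 and Nlrc5. The 250 bases before each start were searched on both strands for the NF-kB letters (GGG, then NN for any bases, then TTCCC), the core TGACG of the cAMP response element (CRE), the interferon-stimulated response element (ISRE) letters (GAAA, NN, GAAA) and the gamma-activated site (GAS) letters (TTC, NNN, GAA). These motifs do not overlap one another in the stretches printed. Only exact matches to the letters were counted, so a promoter without a match can still hold a site that differs by a base. The NF-kB letters were in 4 of the 8, H2-K1, H2-D1, H2-Q4 and H2-Q7, against 1.53% of all 32851 promoters in the table. The CRE core was in 6 of the 8, against 17.8% of all promoters, and both together were in 0.329% of all promoters. The ISRE letters were in B2m and H2-T23, against 2.98% of all promoters, and the GAS letters, in 7.02% of all promoters, were in none of the 8. Both the NF-kB letters and the CRE core were thus in 4 heavy chain genes. B2m held the CRE core with the ISRE letters, and H2-T23 held the ISRE letters alone. In H2-D1 and H2-Q4 the CRE core, at 101 to 97 and 73 to 69 bases before the start, lies outside the window printed. The stretches below, 5′ to 3′ on each gene's strand with the matched letters in capitals, are shown to set these promoters side by side. They are H2-K1 at chr17:34000364-34000478 (minus strand), H2-Q7 at chr17:35439002-35439115 (plus strand), B2m at chr2:122147528-122147633 (plus strand), and windows of 30 bases at chr17:35262913-35262942 for H2-D1 (plus strand), chr17:35379434-35379463 for H2-Q4 (plus strand) and chr17:36032806-36032835 for H2-T23 (minus strand, where the ISRE letters stand on the opposite strand).
H2-K1: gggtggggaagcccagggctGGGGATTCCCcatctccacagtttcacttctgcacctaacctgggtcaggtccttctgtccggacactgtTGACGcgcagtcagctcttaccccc
H2-Q7: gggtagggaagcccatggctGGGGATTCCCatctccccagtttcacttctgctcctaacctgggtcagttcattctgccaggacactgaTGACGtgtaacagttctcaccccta
H2-D1: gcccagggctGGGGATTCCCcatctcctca
H2-Q4: atcaggggtgGGGATTTCCCatctccccag
B2m: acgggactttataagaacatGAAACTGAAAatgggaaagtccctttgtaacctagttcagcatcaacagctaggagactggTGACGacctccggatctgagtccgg
H2-T23: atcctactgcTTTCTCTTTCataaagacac

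From the first base of the NF-kB letters to the first base of the CRE core the distance was 70 bases in H2-K1, 70 in H2-D1 and 69 in H2-Q7, and 100 bases in H2-Q4. The stretches of H2-K1 and H2-Q7 overlap no annotated gene. That of B2m lies within the gene Patl2 and outside its exons, and the windows of H2-D1 and H2-T23 fall in annotated exons of those genes, while that of H2-Q4 falls in an exon of Gm11131. By the starts of the promoter table, Tap1 begins 226 bases from Psmb9, an immunoproteasome gene on the opposite strand. GENCODE vM21 starts Tap1 at chr17:34187553 and Psmb9 at chr17:34187764, so these genes overlap in that annotation. A match of letters is a description of the sequence and no measure of binding, which was not assayed.

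Of 13439 barcodes, 11671 took a condition from their hashtags, and 10600 of those held at least 500 genes and at most 10% mitochondrial transcripts. The cells used numbered 1589, 1703 and 1869 at 0.2, 2 and 20 pmol M9C, 2207 and 2477 at 80 and 20 pmol L6F, and 755 in the rested condition. The filters left out 1.43 to 3.71% of the stimulated cells of a condition and 52.3% of the rested ones, so the rested cells described are the deeper part of that culture. Median transcript counts per cell, in unique molecular identifiers (UMIs), were 6050 to 7114 in the stimulated conditions and 1056 in rested cells. Total UMIs were 11376897 to 16014100 for a stimulated condition and 918920 for the rested one. A count of 0 allows up to 0.187 to 0.264 CPM in the stimulated conditions and up to 3.26 in the rested one, with CPM, the count of a gene scaled to a common total of gene UMIs per condition. The defining markers of CD8 T cells, 5 of 5 present, summed to 1810 to 1955 CPM in the stimulated conditions and 3518 CPM in rested cells. The markers of CD4 T cells (Cd4, Cd40lg and Foxp3) summed to 0.437 to 2.01 CPM in stimulated and 1.09 CPM in rested cells. Of these, Cd4 was at 0.0774 CPM or less in the stimulated conditions and at 0 in rested cells, where a count of 0 allows up to 3.26 CPM. The summed markers of B cells were 5.03 to 8.56 CPM in stimulated and 23.9 CPM in rested cells. Those of macrophages or monocytes were 0.751 to 24.2 and 146.9 CPM (in rested cells 145.8 of these were Lyz2, and Cd14 was at 0 in all 6), those of erythroid cells 2.39 to 39.7 and 157.8 CPM, those of NK cells 16.95 to 50.6 and 72.9 CPM (nearly all Eomes), and those of basophils or mast cells 0.218 to 2.37 and 11.97 CPM. The 4 dendritic markers reached at most 0.310 CPM in a stimulated condition and were all at 0 in rested cells. Neutrophil markers were at most 0.176 CPM in stimulated and 2.18 CPM in rested cells, and platelet markers 0.918 to 7.99 CPM and 0.

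The first question is whether class I transcripts took a larger or smaller share of the cell's transcripts after 30 h of stimulation. H2-K1, one of the classical heavy chains, stood at 903.4, 896.4 and 905.3 CPM at 0.2, 2 and 20 pmol M9C and at 959.1 and 957.2 CPM at 80 and 20 pmol L6F, against 1663 CPM in rested cells. The 5 stimulated values lay within a narrow band, and the rested value was above all of them with no overlap of counting intervals. At 20 pmol M9C the ratio was 0.544-fold (95% interval 0.516 to 0.575) and at 20 pmol L6F 0.576-fold (0.546 to 0.607).

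H2-D1, whose product in mice of the b haplotype is the H-2Db molecule also used as the stimulus, stood at 535.4, 520.9 and 512.4 CPM at 0.2, 2 and 20 pmol M9C and at 604.0 and 578.9 CPM at 80 and 20 pmol L6F, against 865.1 CPM in rested cells. Again every stimulated interval lay below the rested one. Its ratio to rested cells was 0.592-fold at 20 pmol M9C (0.550 to 0.638) and 0.698-fold at 80 pmol L6F (0.649 to 0.752).

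Among the heavy chains outside the classical pair, H2-Q7, a Qa-2 gene, stood at 196.5, 185.1 and 189.1 CPM at 0.2, 2 and 20 pmol M9C and at 227.0 and 221.6 CPM at 80 and 20 pmol L6F, against 426.6 CPM in rested cells. It was at least 2-fold lower at all 3 M9C doses, with 0.443-fold at 20 pmol (0.398 to 0.495). The L6F ratios of H2-Q7, 0.532 and 0.520, did not reach that size. H2-Q4, also of the Q region, had 23.1, 26.8 and 26.0 CPM at 0.2, 2 and 20 pmol M9C and 28.4 and 23.7 CPM at 80 and 20 pmol L6F, against 53.3 CPM in rested cells (49 UMIs). H2-T23, which encodes Qa-1, a ligand of the NK receptor CD94/NKG2A, had 65.3, 68.3 and 62.2 CPM at 0.2, 2 and 20 pmol M9C and 63.8 and 58.5 CPM at 80 and 20 pmol L6F, against 80.5 CPM in rested cells. The H2-T23 interval included equality with rested cells at 0.2 and 2 pmol M9C and at 80 pmol L6F, and it did not at 20 pmol of either peptide (0.773-fold, 0.609 to 0.995, for M9C). That ended with HTODemux singlets, a 90% hashtag share, TMM scaling or thinned cells, where the intervals of both 20 pmol ratios included equality. With at least 1000 genes required the ratio turned to 1.51-fold at 20 pmol M9C and 1.41-fold at 20 pmol L6F, also with intervals that included equality. Counts of these 3 genes are less certain than the rest: in the last 600 bases of the transcript, 7.27% of 92-base words of H2-Q4, 11.7% of H2-Q7 and 16.5% of H2-T23 occur also in other genes, most of the H2-Q7 words in H2-Q5, against 0% for the other 7.

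B2m, the light chain that every class I heavy chain needs, stood at 476.0, 464.2 and 463.7 CPM at 0.2, 2 and 20 pmol M9C and at 550.0 and 536.3 CPM at 80 and 20 pmol L6F, against 1048 CPM in rested cells. It was lower at all 5 stimuli with no overlap of intervals, and at least 2-fold lower at the 3 M9C doses (0.442-fold, 0.413 to 0.474, at 20 pmol). At 20 pmol L6F its ratio was 0.512-fold (0.479 to 0.548).

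**Figure D1:**
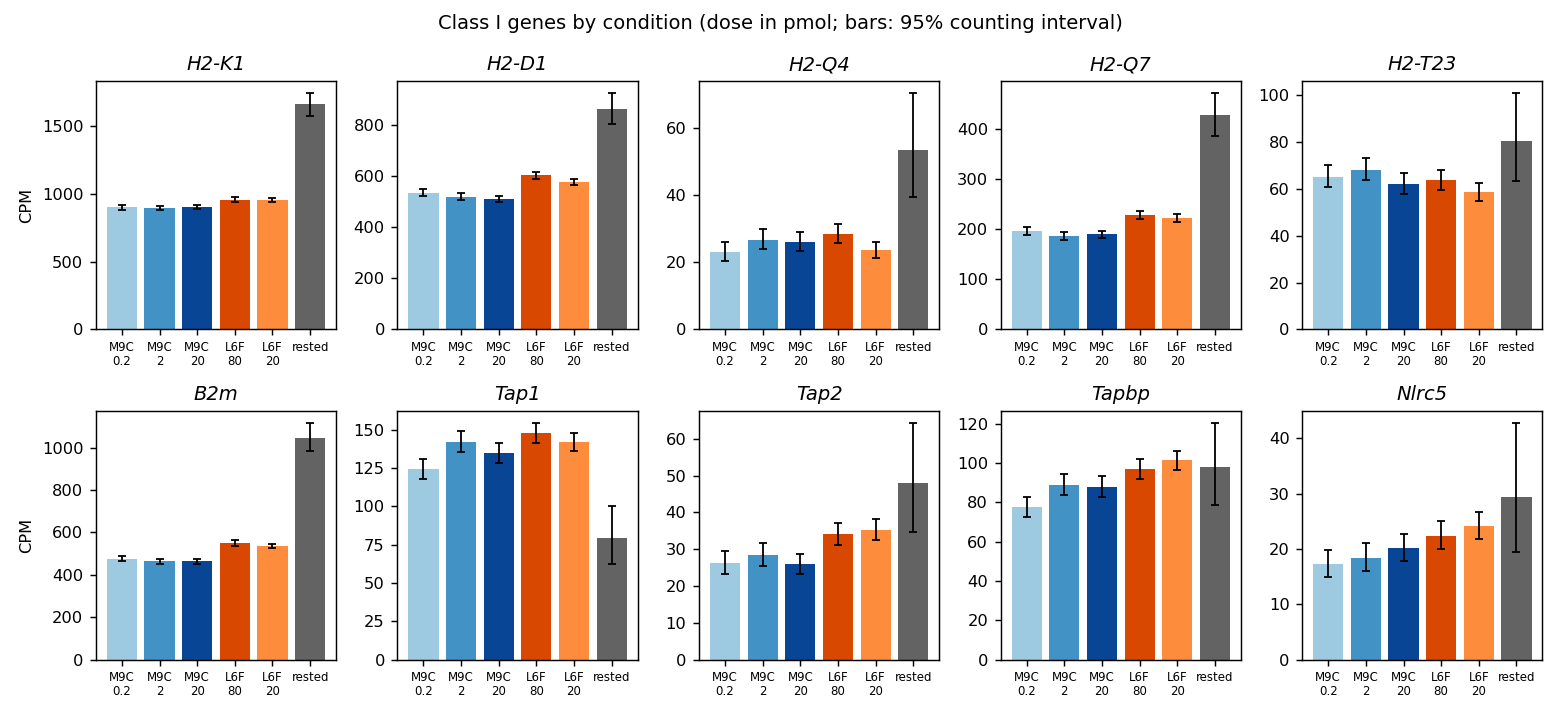
CPM of each of the 10 genes (vertical axes, each from 0) in the 6 conditions, with doses in pmol. Bars are the condition sums and whiskers 95% Poisson intervals of the counts. All genes but Tap1 and Tapbp are below the rested value at every stimulus, and Tap1 is above it at every stimulus. At every stimulus the whiskers of H2-K1, H2-D1, H2-Q4, H2-Q7, B2m and Tap1 are clear of the rested ones.

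The peptide loading genes did not follow the heavy chains as a group. Tap1, one chain of the peptide pump, stood at 124.2, 142.2 and 134.8 CPM at 0.2, 2 and 20 pmol M9C and at 147.8 and 142.2 CPM at 80 and 20 pmol L6F, against 79.4 CPM in rested cells (73 UMIs). It was the member with every stimulated interval above the rested one, by 1.56-fold (1.24 to 2.01) at 0.2 pmol M9C to 1.86-fold (1.47 to 2.38) at 80 pmol L6F, below the 2-fold size used here for a call. Tap2, its partner in the pump, had 26.3, 28.4 and 25.9 CPM at 0.2, 2 and 20 pmol M9C and 34.0 and 35.2 CPM at 80 and 20 pmol L6F, against 47.9 CPM in rested cells (44 UMIs). Its ratio to rested cells was 0.540-fold at 20 pmol M9C (0.394 to 0.757) and 0.736-fold at 20 pmol L6F, where the interval included equality (0.541 to 1.02). Tapbp had 77.4, 89.0 and 87.9 CPM at 0.2, 2 and 20 pmol M9C and 96.9 and 101.3 CPM at 80 and 20 pmol L6F, against 97.9 CPM in rested cells. Its ratio could not be told from equality except at 0.2 pmol M9C (0.791-fold, 0.636 to 0.993), and its sign changed with the scaling of the counts. Nlrc5 had 17.2, 18.4 and 20.1 CPM at 0.2, 2 and 20 pmol M9C and 22.4 and 24.2 CPM at 80 and 20 pmol L6F, against 29.4 CPM in rested cells. With 27 rested UMIs its interval included equality at 20 pmol M9C (0.685-fold, 0.460 to 1.06) and at both L6F doses.

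Summed over the 10 genes, the level was 2445, 2440 and 2427 CPM at 0.2, 2 and 20 pmol M9C and 2733 and 2679 CPM at 80 and 20 pmol L6F, against 4391 CPM in rested cells. The log2 ratio to rested cells was -0.84, -0.85 and -0.86 for the M9C doses and -0.68 and -0.71 for L6F at 80 and 20 pmol, the interval at 20 pmol M9C running from 0.535-fold to 0.571-fold. The sum is mostly H2-K1, H2-D1 and B2m. By count, 3 of 10 were at least 2-fold lower at 20 pmol M9C (H2-Q4, H2-Q7 and B2m), against 16% of the 7779 genes that reached 10 CPM in one of the conditions compared, and 0 of 10 were at least 2-fold higher, against 16.9%. The lower count was 2 of 10 at 2 pmol M9C (H2-Q7 and B2m), against 16.4% of all genes, and 3 of 10 at 0.2 pmol M9C (H2-Q4, H2-Q7 and B2m), against 16.3%. It was 0 of 10 at 80 pmol L6F, against 13.3%, and 1 of 10 at 20 pmol L6F (H2-Q4), against 14%. Each of these counts lies within 2 genes of the background share, and they move with the scaling and the cell filter. No member was at least 2-fold higher at 2 or 0.2 pmol M9C or at 80 or 20 pmol L6F, where 16.7%, 16.5%, 13.5% and 14.3% of all genes were. Counting any size with an interval that excludes equality, 7 of 10 were lower and 1 higher at 20 pmol M9C, against 26.6% and 32.6% of all genes, and 6 and 1 of 10 at 20 pmol L6F, against 26% and 30.9%. Counts at any size depend on how many UMIs a gene has, and the shares of all genes are not matched for that. The median log2 CPM ratio of the members was -0.82 at 20 pmol M9C and -0.52 at 20 pmol L6F, beside medians of 0.10 and 0.08 over all genes. With at least 1000 genes required, which kept 47 rested cells, the member medians were -0.15 and 0.07, beside -0.18 and -0.18 over all genes. Among those cells the member medians were thus not below those of all genes. The 5 comparisons share the rested cells and are not independent of each other.

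Whether the set is lower or higher than in rested cells depends on the scale. With cells as the unit, H2-K1 averaged 6.47 ± 3.79, 6.31 ± 3.79 and 6.26 ± 3.79 UMIs per cell at 0.2, 2 and 20 pmol M9C and 5.99 ± 3.63 and 6.19 ± 3.81 at 80 and 20 pmol L6F, against 2.02 ± 1.61 in rested cells (SD over cells of 1 culture). B2m averaged 3.41, 3.27 and 3.20 UMIs per cell at the M9C doses and 3.44 and 3.47 at 80 and 20 pmol L6F, against 1.28 in rested cells. Tap1 averaged 0.889, 1.00 and 0.932 UMIs per cell at 0.2, 2 and 20 pmol M9C and 0.923 and 0.919 at 80 and 20 pmol L6F, against 0.0967 in rested cells, a ratio of 9.63-fold at 20 pmol M9C (7.62 to 12.3). The 10 genes together averaged 17.5, 17.2 and 16.8 UMIs per cell at 0.2, 2 and 20 pmol M9C and 17.1 and 17.3 at 80 and 20 pmol L6F, against 5.34 in rested cells. All 10 members were at least 2-fold higher per cell at every stimulus, as were 90.7% of all genes at 20 pmol M9C, 91% at 2 pmol and 91.5% at 0.2 pmol M9C, and 91.8% for 80 pmol L6F and 91.8% for 20 pmol L6F. The summed ratio per cell was 3.14-fold at 20 pmol M9C and 3.24-fold at 20 pmol L6F, while the mean cell held 5.68 and 5.31 times the UMIs of the mean rested cell. More RNA in a cell and a better capture of it cannot be told apart in these counts.

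**Figure D2:**
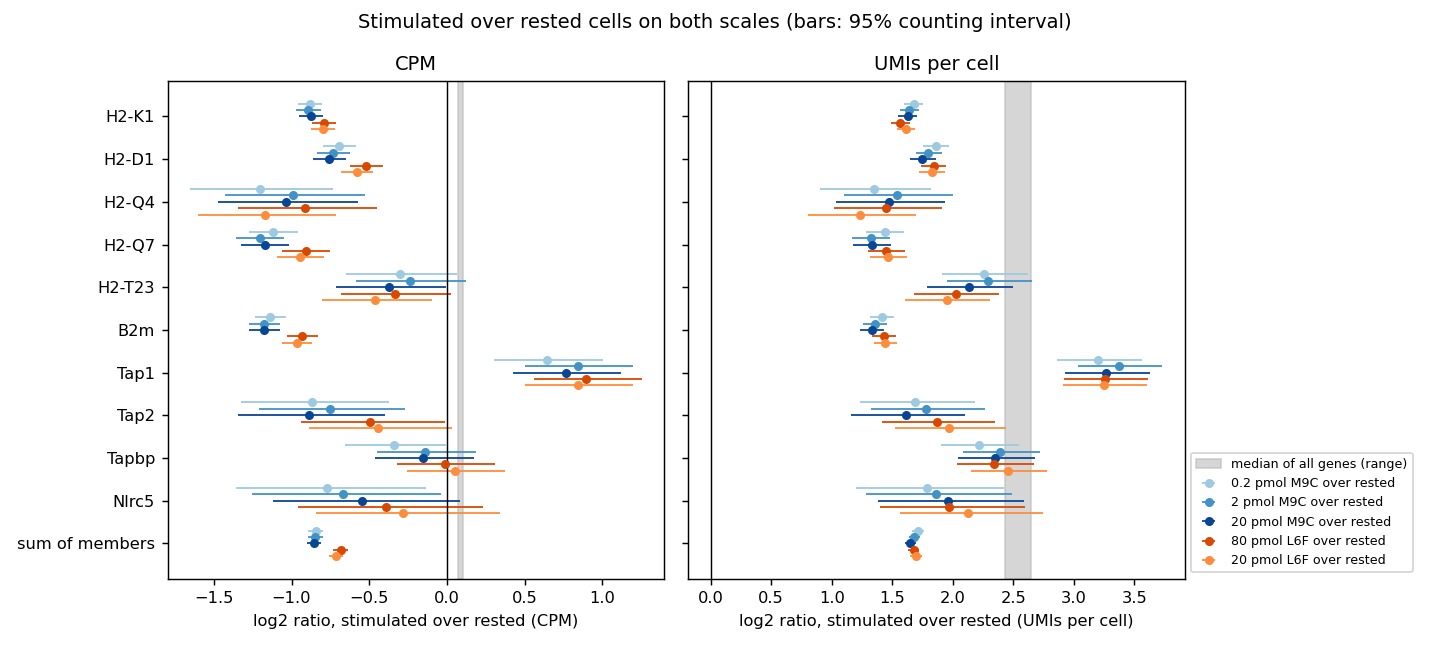
Log2 ratio of every member and of their sum, stimulated over rested, in CPM (left) and in UMIs per cell (right). Points are conditions, bars 95% counting intervals, and the grey band is the range of the median over all genes. In CPM the sum lies at -0.86 to -0.68 and per cell at 1.65 to 1.71, where the medians of all genes are 2.43 to 2.65.

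Depth moved with the contrast, so the levels are given within depth ranges too. Among cells of 2000 to 4000 UMIs, B2m stood at 496.5, 497.5 and 498.8 CPM at 0.2, 2 and 20 pmol M9C and at 619.9 and 611.4 CPM at 80 and 20 pmol L6F, against 976.6 CPM (795.5 to 1187) in the 41 rested cells of that range. The 5 heavy chain genes together had 1936, 1861 and 1906 CPM at the M9C doses and 2215 and 2128 CPM at 80 and 20 pmol L6F, against 2572 CPM (2272 to 2901) in those rested cells. Tap1 had 130.7 to 168.2 CPM in the 5 stimulated conditions and 77.4 CPM (33.4 to 152.4) in those rested cells, on 8 UMIs. In that range the B2m intervals of all 5 stimuli lay below the rested one. The heavy chain interval at 80 pmol L6F (2136 to 2296 CPM) overlapped the rested one, as did Tap1 intervals, and the gaps of B2m and of the heavy chains were smaller than over all cells. Stimulated cells of 1000 to 2000 UMIs were few and did not all stand apart: the 10 genes summed to 5219 CPM at 2 pmol M9C (22 cells), 2606 CPM at 20 pmol M9C (29 cells), 4924 CPM at 80 pmol L6F (49 cells) and 4233 CPM at 20 pmol L6F (47 cells), against 4443 CPM in 415 rested cells. Within the rested culture the sum was 4905, 4443 and 3820 CPM in cells under 1000, of 1000 to 2000 and of 2000 to 4000 UMIs, so shallower cells had the higher level. With at least 1000 genes required, which kept 47 rested cells, the summed log2 ratio shrank to -0.36 at 20 pmol M9C and -0.22 at 20 pmol L6F, and none of the 10 was at least 2-fold lower. H2-T23 and H2-Q4 then stood above rested cells at all 5 stimuli, with intervals that included equality. Of the 10 members, 6 at 80 pmol L6F and 5 at 20 pmol L6F were then above rested cells, beside 3 at 20 pmol M9C. The part of depth in the difference was not tested further.

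**Figure D3:**
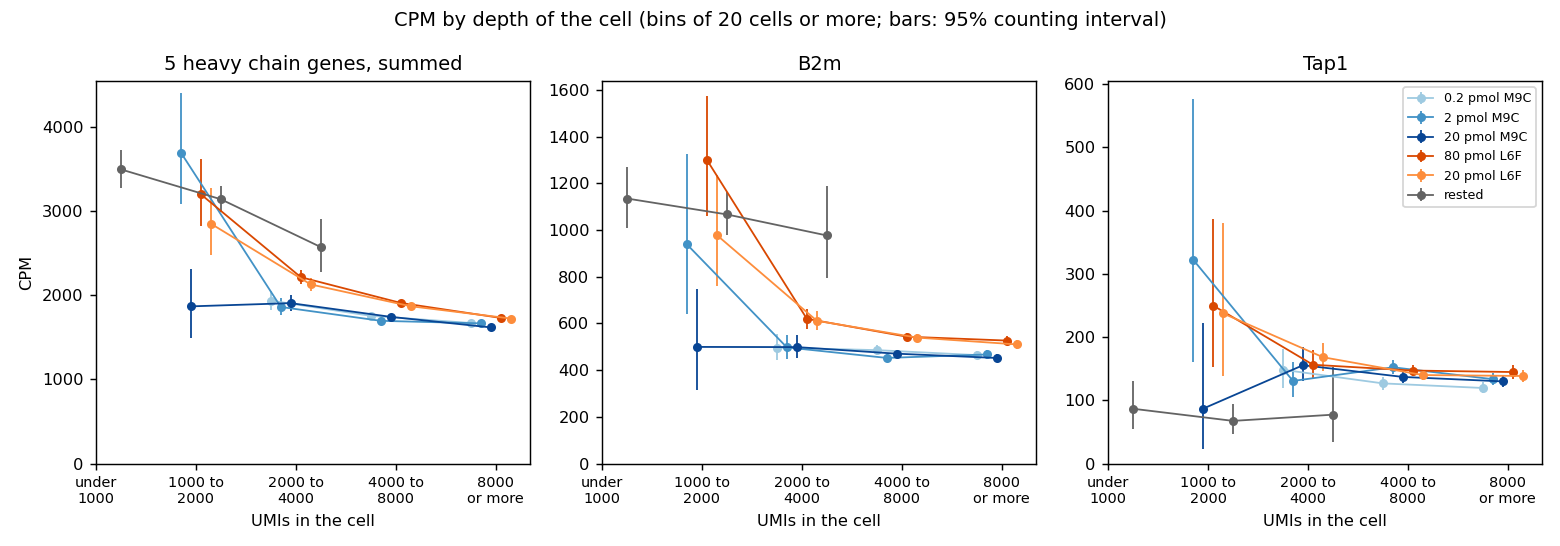
CPM (vertical axes from 0) of the 5 heavy chain genes summed, of B2m and of Tap1, by the number of UMIs in the cell, one line per condition. Bars are 95% Poisson intervals, and ranges with fewer than 20 cells are left out. In cells of 2000 to 4000 UMIs, B2m spans 496.5 to 619.9 CPM over the stimulated conditions, against 976.6 CPM in rested cells.

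With each cell thinned to 1000 UMIs, the 10 genes held 2.49, 2.56 and 2.52 UMIs per cell at 0.2, 2 and 20 pmol M9C and 2.82 and 2.79 at 80 and 20 pmol L6F, against 4.39 in rested cells. Thinning left out 3, 5 and 7 cells at the M9C doses, 7 and 10 at 80 and 20 pmol L6F, and 291 rested cells. At that depth Tap1 was seen in 11.3, 14.4 and 13.5% of cells at 0.2, 2 and 20 pmol M9C and in 14.2 and 13.3% at 80 and 20 pmol L6F, against 5.603% of rested cells (exact binomial interval 3.69 to 8.10%). Before thinning, Tap1 was seen in 54.2 to 59.5% of stimulated and 8.34% of rested cells of all depths. Its thinned level was at least 2-fold higher than in rested cells at 2 and 20 pmol M9C and at both L6F doses (2.38-fold at 20 pmol M9C), but not at 0.2 pmol M9C (1.98-fold). Nearly all nucleated cells express class I, so the pool held no cell type that could gauge free RNA for these genes.

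The next question is whether peptide or dose changed these genes among stimulated cells, which are closer to each other in depth than to rested cells. Median UMIs per cell were 6943 at 20 pmol M9C and 6354 at 20 pmol L6F. At 20 pmol, M9C cells had less of the class I set than L6F cells as a share of transcripts. The sum was 2427 CPM at 20 pmol M9C and 2679 CPM at 20 pmol L6F, 0.906-fold (0.893 to 0.919). At 20 pmol M9C it was 2754, 2490 and 2320 CPM in cells of 2000 to 4000, 4000 to 8000 and 8000 or more UMIs. At 20 pmol L6F it was 3129, 2708 and 2522 CPM in those ranges, so the sum fell with depth in both conditions. Of the 10 genes, 7 were lower in M9C cells with an interval that excluded equality and 0 were higher, against 17.6% lower and 21% higher among the 7014 genes measured. That share is not matched for UMI counts, and genes with many UMIs, such as H2-K1, have tight intervals that exclude equality at small differences. The differences were small. B2m was 463.7 CPM with M9C and 536.3 CPM with L6F (0.865-fold, 0.836 to 0.894), H2-Q7 189.1 and 221.6 CPM (0.853-fold, 0.810 to 0.899), and H2-D1 512.4 and 578.9 CPM (0.885-fold, 0.858 to 0.914). H2-K1 was 0.946-fold (0.923 to 0.969), Tapbp 0.868-fold (0.804 to 0.937) and Nlrc5 0.833-fold (0.709 to 0.977).

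Tap2 was the member past the size used for a call between stimulated conditions, 25% higher or 20% lower, with 25.9 CPM at 20 pmol M9C and 35.2 CPM at 20 pmol L6F (0.734-fold, 0.639 to 0.842). That is 1 of 10 lower, against 7.4% of all genes, and 0 of 10 higher, against 6.86%. For Tap1, H2-T23 and H2-Q4 the CPM intervals included equality (0.890 to 1.01, 0.967 to 1.17 and 0.946 to 1.28), which bounds the difference but does not show that the peptides act alike. Per cell the summed ratio was 0.969-fold (0.955 to 0.983), and the mean cell held 6911 UMIs at 20 pmol M9C and 6465 UMIs at 20 pmol L6F. On that scale 4 of 10 were lower with M9C with an interval off equality (H2-D1, H2-Q7, B2m and Tap2), against 8.81% of all genes, and 2 were higher, against 41.4%. The higher ones were H2-Q4 (1.17-fold, 1.01 to 1.36) and H2-T23 (1.14-fold, 1.034 to 1.251), while H2-K1 turned to 1.01-fold (0.987 to 1.04). In CPM all 3 M9C sums were below both L6F sums, and the ranges over doses, 2427 to 2445 CPM for M9C and 2679 to 2733 CPM for L6F, did not overlap, whereas in UMIs per cell the M9C and L6F sums overlapped. Each condition was a single culture, so the peptide cannot be told apart from the culture.

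Across doses the set moved little. In CPM the summed ratio of 20 over 0.2 pmol M9C was 0.993-fold (0.977 to 1.01), with 2427 and 2445 CPM. Past that size were 0 of 10 higher, against 3.23% of all genes, and 0 of 10 lower, against 1.95%. Within that bound, Tapbp was 1.14-fold (1.04 to 1.24), Tap1 1.09-fold (1.01 to 1.16) and H2-D1 0.957-fold (0.924 to 0.991), so that 2 were higher and 1 lower at any size, against 8.43% and 8.27% of all genes, and the other 7 intervals included equality. In UMIs per cell the sum was 0.958-fold (0.943 to 0.974), with 4 lower (H2-K1, H2-D1, H2-Q7 and B2m) and 1 higher (Tapbp), against 18.7% and 4.83% of all genes. For comparison, Ifng, the gene of the cytokine that is a known inducer of class I, stood at 68.1, 97.7 and 139.3 CPM at 0.2, 2 and 20 pmol M9C and at 30.8 and 34.0 CPM at 80 and 20 pmol L6F, against 6.53 CPM in rested cells. Ifng is outside the lists and was added after its values were seen. The 3 M9C sums differed by less than their counting intervals, and any relation of Ifng to the class I sum was not tested. For 80 over 20 pmol L6F the summed ratio was 1.02-fold (1.01 to 1.03), with 2733 and 2679 CPM, and 0 of 10 passed it in either direction, against 0.963% of all genes higher and 1.01% lower. H2-D1 (1.04-fold, 1.01 to 1.07) and H2-Q4 (1.20-fold, 1.04 to 1.38) had intervals above equality, 2 of 10, against 6.87% of all genes, and 0 of 10 below it, against 8.02%. In UMIs per cell the L6F sum turned to 0.986-fold (0.972 to 1.00, with the upper end just under equality), with 2 lower (H2-K1 and Tapbp) and 1 higher (H2-Q4), against 20% and 2.34% of all genes. From low to high, the sums in CPM thus ordered as M9C, L6F and rested, and the 3 M9C doses had overlapping intervals.

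**Figure D4:**
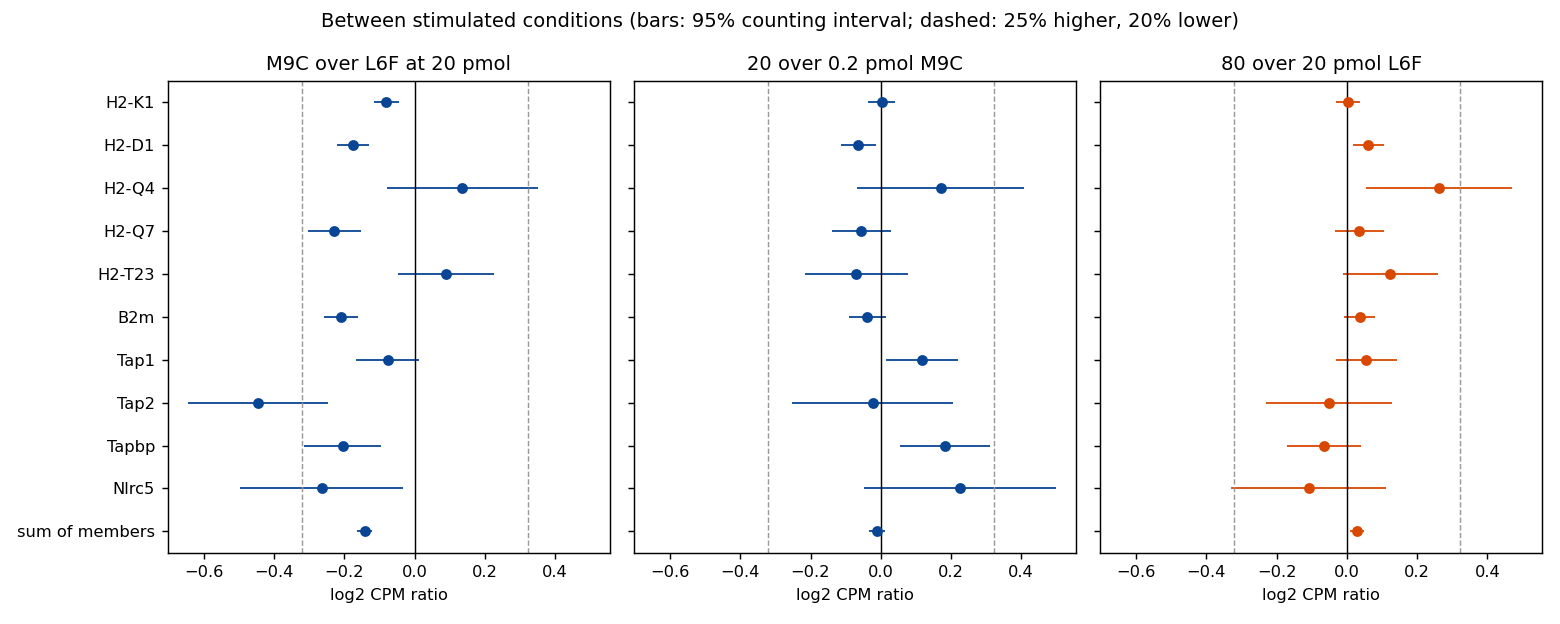
Log2 CPM ratio of every member and of their sum for M9C over L6F at 20 pmol, 20 over 0.2 pmol M9C and 80 over 20 pmol L6F. Bars are 95% counting intervals and dashed lines mark 25% higher and 20% lower. Of the members, only Tap2 is past a dashed line with an interval off equality, in M9C over L6F.

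The composition of the set was compared as shares of UMIs. H2-K1 made up 62.8, 63.2 and 63.9% of H2-K1 plus H2-D1 UMIs at 0.2, 2 and 20 pmol M9C and 61.4 and 62.3% at 80 and 20 pmol L6F, against 65.8% in rested cells (exact interval 63.8 to 67.7%). B2m made up 24.9, 24.7 and 24.6% of the UMIs of H2-K1, H2-D1 and B2m at the M9C doses and 26.0 and 25.9% at 80 and 20 pmol L6F, against 29.3% in rested cells (27.8 to 30.9%). Tap1 made up 54.5, 54.8 and 54.2% of the UMIs of Tap1, Tap2 and Tapbp at the M9C doses and 53.0 and 51.0% at 80 and 20 pmol L6F, against 35.3% in rested cells (28.8 to 42.2%). These shares do not depend on the scaling of the counts, and the rested intervals of B2m and Tap1 lay outside those of all 5 stimuli. The rested interval of the H2-K1 share overlapped those at 2 and 20 pmol M9C. The stimuli differed among themselves in that share by more than rested cells differed from 20 pmol M9C. Counts at transcript ends are not corrected for capture, so a share compares conditions and not the abundance of one gene with another.

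The remaining genes of class I presentation were taken as a list of 21, of which 15 were measured at the 10 CPM limit. At 20 pmol M9C 2 of 15 were at least 2-fold higher than in rested cells and 0 lower, against 16.9% and 16% of all genes, with a median log2 ratio of 0.19. Hspa5, the chaperone BiP of the endoplasmic reticulum, was at 1096 CPM at 20 pmol M9C and 428.8 CPM in rested cells (2.56-fold, 2.31 to 2.83). Canx, the chaperone calnexin, which holds new heavy chains, was at 330.3 and 164.3 CPM (2.01-fold, 1.71 to 2.38). The lowest were H2-Q6, another Q region heavy chain, at 0.515-fold (0.371 to 0.733), and Psmb10, an immunoproteasome subunit, at 0.627-fold (0.547 to 0.721). At 20 pmol L6F 0 of 15 passed 2-fold in either direction, against 14.3% higher and 14% lower of all genes (median 0.28). Psmb9, the subunit gene beside Tap1, was at 191.9 CPM at 20 pmol L6F and 96.9 CPM in rested cells (1.98-fold, 1.60 to 2.47), and Canx at 1.92-fold (1.63 to 2.27).

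M9C and L6F at 20 pmol also differed in some of these genes. Of 15, 3 were at least 20% lower and 1 at least 25% higher, against 7.4% and 6.86% of all genes. The 3 were the immunoproteasome subunits: Psmb8 at 628.1 CPM with M9C and 943.9 CPM with L6F (0.665-fold, 0.648 to 0.684), Psmb10 at 158.9 and 218.0 CPM (0.729-fold, 0.690 to 0.770) and Psmb9 at 151.6 and 191.9 CPM (0.790-fold, 0.746 to 0.836). The higher one was Hspa5, at 1096 and 814.7 CPM (1.35-fold, 1.31 to 1.38), and Calr, the chaperone calreticulin, followed at 735.1 and 620.2 CPM (1.19-fold, 1.15 to 1.22). Psmb8 in rested cells was 779.2 CPM, between the peptides. Whether the members and the list differ from each other was not tested.

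**Figure D5:**
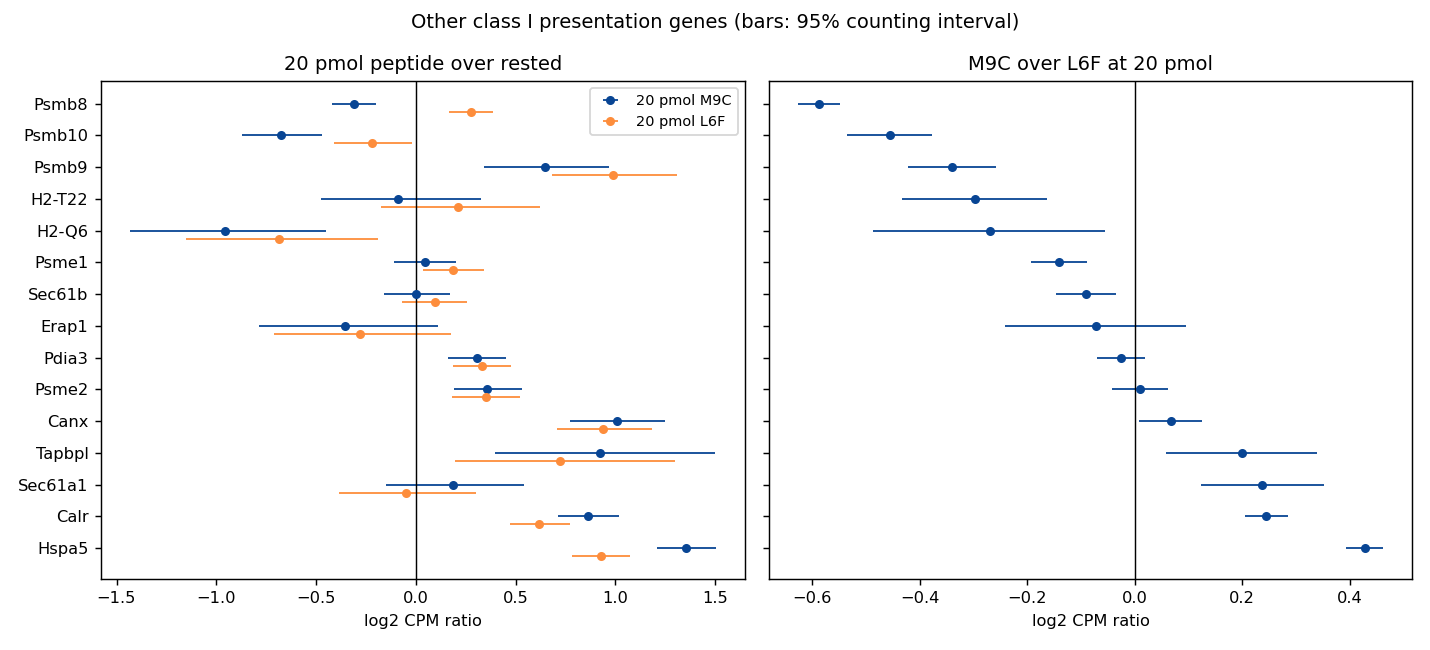
Log2 CPM ratio of the 15 other class I presentation genes measured, for both peptides at 20 pmol over rested cells (left) and for M9C over L6F at 20 pmol (right). Bars are 95% counting intervals. Psmb8, Psmb10 and Psmb9 are lowest in M9C over L6F, at 0.665-fold, 0.729-fold and 0.790-fold, and Hspa5 is highest, at 1.35-fold.

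Of 22 genes for regulators of class I, 20 were measured against rested cells, and at 20 pmol M9C 9 of 20 passed 2-fold below rested cells, against 16% of all genes, and 1 passed it above, against 16.9% (median log2 ratio -0.42). At 20 pmol L6F 7 of 20 were lower and 2 higher, against 14% and 14.3% (median -0.73). The lowest were the interferon gamma receptor genes. Ifngr1 was at 18.8 CPM at 20 pmol M9C and 29.5 CPM at 20 pmol L6F, against 274.2 CPM in rested cells, and Ifngr2 at 3.25 and 4.43 CPM, against 30.5 CPM in rested cells. Nfkb1, an NF-kB subunit gene, was at 115.9 CPM at 20 pmol M9C and 54.4 CPM in rested cells (2.13-fold, 1.61 to 2.88).

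Between the peptides at 20 pmol, 5 of 17 measured regulators were at least 20% lower with M9C and 2 at least 25% higher, against 7.4% and 6.86% of all genes (median -0.13). Ifngr1 was 0.638-fold (0.545 to 0.747) and Ifnar1, a type I interferon receptor chain, 0.647-fold (0.536 to 0.779), while Jak2, a kinase of the interferon gamma receptor, was 1.62-fold (1.37 to 1.91) and Nfkb1 1.50-fold (1.39 to 1.62). Of the class II list of 7, 2 were measured against rested cells. The invariant chain gene Cd74 was at 40.1 CPM at 20 pmol M9C and 8.71 CPM in rested cells (4.61-fold, 2.32 to 10.7), and H2-DMa at 8.75 and 76.2 CPM (0.115-fold, 0.0845 to 0.157). The class II genes H2-Aa, H2-Ab1 and H2-Eb1 were at most 4.34 CPM in any stimulated condition and 3.26 CPM in rested cells.

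T cell surface genes, a list of 12 all measured, give a reference for other abundant membrane proteins. At 20 pmol M9C 4 of 12 were at least 2-fold lower than in rested cells and 1 higher, against 16% and 16.9% of all genes (median -0.52), and at 20 pmol L6F 3 and 0, against 14% and 14.3% (median -0.55). Cd48, an adhesion ligand, was 0.311-fold at 20 pmol M9C (0.252 to 0.386), Thy1 0.347-fold (0.319 to 0.379), and Cd5, a known brake on receptor signals, 2.66-fold (2.07 to 3.48).

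Within each stimulated condition, members varied together weakly across cells. With cells thinned to 3000 UMIs, Pearson's r averaged over the 45 pairs of members was 0.0325, 0.0373 and 0.0352 at 0.2, 2 and 20 pmol M9C and 0.0304 and 0.0359 at 80 and 20 pmol L6F, over 1500 to 2258 cells each. The pairs with the highest mean r were H2-K1 with H2-Q7 (0.119), H2-K1 with H2-D1 (0.112) and H2-K1 with B2m (0.0958). Cells of a condition share their library, counts are sparse, and correlations of this size are given as a description. Of 5217 genes ranked by their mean r with the summed members over the 5 stimulated conditions, whose median was -0.0025, among the 10 most alike were Ly6a (0.262), Gbp2 (0.206), Ly6e (0.189), Serpina3g (0.177), Ltb (0.176), AW112010 (0.176), Psmb8 (0.161), Iigp1 (0.151) and Cyba (0.141). Ly6a ranged from 0.239 to 0.286 over the 5 conditions.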

How the data were processed

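UMI counts per gene and per hashtag in each barcode were deposited by the authors. Per the file headers and the submitters' processing notes they were made on GRCm38 (mm10) with bcl2fastq and Cell Ranger 6.0.1. The sources used here do not give the annotation or the settings that told cells from empty droplets. Propidium iodide was used to sort live cells, per the labels' protocols, 4000 per peptide condition and 2000 rested, 22000 in all. That sort does not select CD8+ cells. The transcriptome and hashtag libraries come from the same cells, so all 13439 barcodes are shared between them.

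A barcode took a condition where its top hashtag had 20 or more counts and 80% or more of its hashtag counts, and the other 1768 barcodes were left out, mixed hashtags among them. No other doublet caller was run, and 17.2% of random pairs of cells would share a condition and go unseen. UMIs were summed per condition. CPM has exact Poisson and ratios exact Clopper-Pearson 95% intervals. A call is 2-fold against rested cells, or 25% higher or 20% lower between stimulated conditions, with an interval off equality. Genes had to reach 10 CPM in one of the conditions compared. A count of 0 was set at a floor of 3 counts. Both CPM and UMIs per cell are main scales, over 8 comparisons. Alternatives were another hashtag call, cell and gene filters, a limit on mitochondrial share, a limit on UMIs, TMM scaling (edgeR 4.0.16), CPM without the most abundant noncoding, ribosomal and mitochondrial genes, and thinning to 1000 UMIs. A set of cells without other cell types' markers and the split by depth were added after seeing the data.

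The members and lists were chosen with earlier results of these data known. All members are named, and from each list at most 4 genes per comparison, those with the largest and smallest log2 CPM ratio. In the list of other presentation genes 20 of 21 symbols were matched (H2-T10 was not). Genes outside this rule are Psmb9 in M9C over L6F, Psmb8 in rested cells, and H2-Aa, H2-Ab1 and H2-Eb1, chosen after their values were seen. Some genes that the rule names are not reported here. GENCODE vM21 held 32158 of the 32285 gene IDs. The ratio and interval code was tested on simulated counts. Python 3.11.15, scipy 1.17.1, R 4.3.3 and Seurat 5.3.0 were used.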

Additional observations from a re-analysis of the deposited data

How the results depend on the processing

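No paired analysis was possible because each condition was 1 culture. The summed log2 CPM ratio to rested cells stayed below 0 under every alternative. At 0.2, 2 and 20 pmol M9C and then 80 and 20 pmol L6F it was -0.73, -0.73, -0.74, -0.57 and -0.60 with HTODemux singlets, -0.92, -0.92, -0.93, -0.76 and -0.78 with no filter on genes, -0.35, -0.36, -0.36, -0.19 and -0.22 with at least 1000 genes, -0.70, -0.70, -0.71, -0.52 and -0.55 with TMM scaling, and -1.09, -1.08, -1.10, -0.91 and -0.95 without ribosomal, mitochondrial, Malat1 and Gm42418 UMIs. It was -0.78 and -0.80 at 2 and 20 pmol M9C and -0.65 at 20 pmol L6F with cells thinned, -0.89 and -0.90 at 0.2 and 20 pmol M9C without cells above 3 times the median UMIs, and -0.89, -0.90 and -0.91 at the M9C doses without cells holding 2 or more UMIs of other cell types' markers. The ratio of 20 over 0.2 pmol M9C was 0.017 with cells thinned. With at least 1000 genes the median over all genes was also below 0. It was -0.19, -0.20 and -0.18 at 0.2, 2 and 20 pmol M9C and -0.17 and -0.18 at 80 and 20 pmol L6F. The L6F sums of -0.19 and -0.22 were close to it, and the member medians at both L6F doses were 0.07.

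With at least 1000 genes, members at least 2-fold lower numbered 0 for each M9C dose and 20 pmol L6F. Of all genes, 12.15, 12.56 and 12.23% were then lower at 0.2, 2 and 20 pmol M9C and 10.66% at 20 pmol L6F. With TMM scaling such members numbered 1 at 0.2 pmol M9C, against 13.9% of all genes. Without ribosomal, mitochondrial, Malat1 and Gm42418 UMIs such members numbered 6, 4 and 5 at 0.2, 2 and 20 pmol M9C, against 21.2, 21.4 and 21.3% of all genes. With that scaling such members numbered 4 and 4 at 80 and 20 pmol L6F, against 18.7% and 19.3%. For 20 pmol L6F such members numbered 2 with a 90% hashtag share and 3 with no filter on genes, against 13.4% and 14.59% of all genes. They numbered 2 without the deepest cells and 2 without cells with other markers, against 14.35% and 14.27% of all genes. For 80 pmol L6F they numbered 1 with a 90% hashtag share and 1 without the deepest cells, against 12.62% and 13.51% of all genes. Members at least 2-fold higher numbered 1 with cells thinned at 2 and 20 pmol M9C and at both L6F doses. Of all genes, 16.74, 17.15, 13.77 and 14.87% were then higher at 2 and 20 pmol M9C and 80 and 20 pmol L6F. The higher count was 1 at 80 and 20 pmol L6F with TMM scaling, against 17.99% and 19.05% of all genes. It was 1 at 80 pmol L6F without the deepest cells, against 15.53%. For M9C over L6F the lower count was 0 with a 50 CPM filter, which drops Tap2, and 0 with cells thinned, against 5.005% and 6.111% of all genes. With at least 1000 genes, H2-Q4 turned to 0.75, 0.97, 0.92, 1.04 and 0.77 on the log2 scale at 0.2, 2 and 20 pmol M9C and 80 and 20 pmol L6F, and H2-T23 to 0.66, 0.72, 0.59, 0.62 and 0.49, all with intervals that include 0. Thinning also turned H2-T23 at 2 pmol M9C (0.074) and 80 pmol L6F (0.025). The mean r was 0.0264 at 2000 UMIs. The cause was not tested, except that fewer cells remain under stricter filters. TMM scaling moved the median of all genes against rested cells to 0.23 to 0.25 and the composition scaling to -0.16 to -0.14, beside 0.07 to 0.10. At 20 pmol M9C 1316 genes were higher and 1244 lower, 1652 and 1061 with TMM, 853 and 1655 with the composition scaling, and at 80 pmol L6F 1043 and 1026, 1387 and 801, and 696 and 1442. Depth limits Nlrc5, Tap2, H2-Q4, H2-T23 and Tap1, with 27 to 74 UMIs in rested cells.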
